A study of Mus musculus with 29 samples.

Results

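Mammary fat of mice that stayed obese on a high fat diet (the Obese group, 5 libraries) was compared with mammary fat of mice on a control diet (the Control group, 5 libraries), over all genes. The 10 libraries were taken by their treatment label from 29 in all, and none was chosen by its values. All mice were wild-type C57BL/6N. Control mice ate diet D12450J, and Obese mice ate D12492, a diet with 60% fat, and were not moved to a weight-loss diet afterwards. Every mouse of both groups had also been injected with E0771 mouse mammary cancer cells in the 4th mammary fat pad at week 25. Tumour growth was not part of the data used here. The tissue sequenced was the uninjected 9th pad of the opposite side, although the titles begin with the word tumor and the labels name E0771 as the cell line. Age and sex are not given. Each title has its own animal number, taken here as 1 mouse per library. A p-value here sets a difference against the spread among these samples only, which may be partly technical. The other 19 libraries, from mice that were fattened first and later given a diet for weight loss, enter only the shared estimate of spread.

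White fat stores triglyceride in large adipocytes and makes part of it from sugar through fatty acid synthase and its partner enzymes. As fat cells enlarge they are known to release more leptin, the hormone that reports fat stores to the brain, and to draw in macrophages that take up lipid. The mammary pad adds a tree of luminal and basal epithelium and, in mice, an inguinal lymph node that may or may not be taken with the tissue.

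Libraries held 16949981 to 39605294 reads in Control and 17599285 to 49026986 in Obese. The low ends were Control 3 and Obese 3, the libraries of sequencing lane 4, and the other 8 had 29008340 reads or more. Libraries are numbered in accession order within a group, so a number pairs nothing. Values below are normalized counts (reads divided by a size factor of each library) and, for differences, the deposited variance-stabilised log2 values, on which changes of genes with low counts come out smaller than on a plain ratio scale. Markers of mature adipocytes were abundant in every library, with a list mean of 13.2 or more (log2), and those of the lymph node were not. *Glycam1*, made by lymph node vessels, had 15428, 20616, 10572, 9330 and 16886 normalized counts in Control 1 to 5 and 12.7, 6241, 8796, 8893 and 50.9 in Obese 1 to 5. *Ccl21a*, a chemokine that draws T cells into the node, had 17847, 27796, 13093, 8073 and 12618 in Control and 321, 15147, 14477, 18130 and 134 in Obese. Obese 1 and Obese 5 were thus low in both genes, while Obese 2, 3 and 4 were below the lowest Control library in *Glycam1* and within the Control range in *Ccl21a*. The mean of 12 B cell markers was 6.01 and 6.32 (log2) in Obese 1 and 5 and 11.3 to 12.6 in the other 8 libraries, and the mean of 17 T and NK cell markers was 6.03 and 6.10 against 8.82 to 10.2. A principal component of the 10 libraries that carried 61.1% of the variance placed Obese 1 at -98.67 and Obese 5 at -92.64, with the others between -1.33 and 59.51. Obese 2 stood apart in skeletal muscle genes, with a mean of 11.5 over 12 genes against 5.43 to 6.17 in the others. *Myh1*, a fast muscle myosin, had 7151 normalized counts there against 29.1 to 60.4 in the other Obese libraries. Many results, though not all, are therefore also given from a fit with the mean log2 value of *Glycam1* and *Ccl21a* as a covariate, called the lymph node covariate. In whole tissue, fewer cells of a type and less RNA per cell cannot be told apart.

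**Figure D1:**
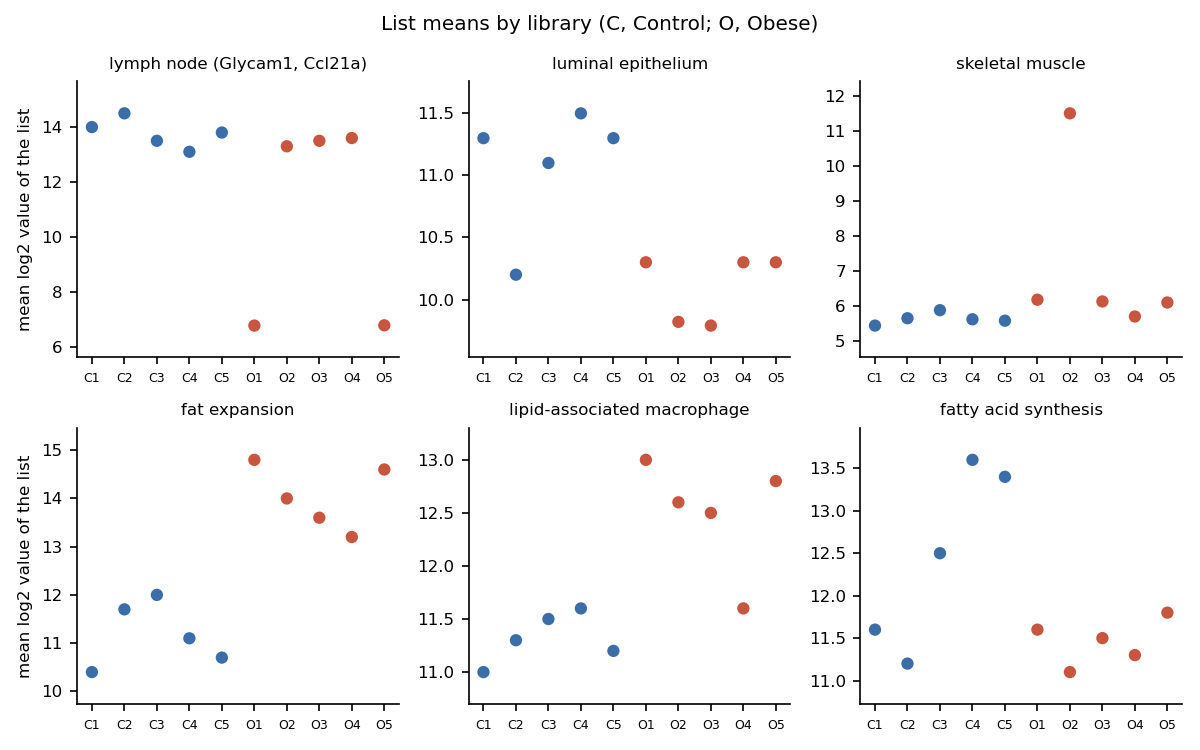
Mean log2 value of 6 gene sets in each library (C, Control; O, Obese; one point per library, vertical axes differ in range and do not start at 0). Obese 1 and Obese 5 sit at 6.77 and 6.78 in the lymph node pair while the other 8 libraries sit at 13.1 or above, and Obese 2 sits at 11.5 in skeletal muscle.

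Of 19387 genes tested, 1830 (9.44%) rose and 666 (3.44%) fell in Obese at an adjusted p under 0.05, which makes 2496 (12.9%) called in either direction. At an unadjusted p under 0.05 there were 5599 genes. Rises were larger than falls, with a median log2 difference of 0.72 among the called rises and -0.56 among the called falls. A log2 difference of at least 2 was reached by 68 of the rises and 25 of the falls. With the lymph node covariate, 1161 genes (5.99%) rose and 500 (2.58%) fell, in all 1661 (8.57%). Both fits called 1441 genes, all in the same direction, while 1055 were called only without the covariate and 220 only with it. The values of the 5 Control and the 5 Obese libraries did not overlap for 1774 genes (9.15%), of which 1225 (6.32%) were higher and 549 (2.83%) lower in Obese.

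The size of these counts rested on single libraries. The 2496 calls became 1357 without Control 1, 1534 without Control 5, 1090 without Obese 1 and 1184 without Obese 5, and the falls became 1043 without Obese 4. Without the 8 libraries of the whole series that had a B cell marker mean under 9 (Obese 1 and 5 and 6 of the weight-loss groups), 628 genes were called, 614 of them among the 2496. With the mean of the 18 luminal epithelium markers as a covariate, called the luminal covariate, 1036 genes were called, and in a fit of the 10 Control and Obese libraries alone 1082. These 3 fits are cited below for many genes and lists but not for all. A call for which they are not cited may also have ended under them. A core of 375 rises and 32 falls was called in the same direction under every one of the 21 other settings tried. Sequencing lane is the only batch the column names give, and lanes 3 to 6 each held 1 Control and 1 Obese library. Of the called genes, 82.8% differed in the pooled direction within lane 3, 96.2% within lane 4, 97.7% within lane 5 and 99.7% within lane 6. These genes were called from the same libraries, so high shares were built in and are no independent check. The share over all genes was not taken. The lane 3 pair was Control 4 and Obese 4.

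**Figure D2:**
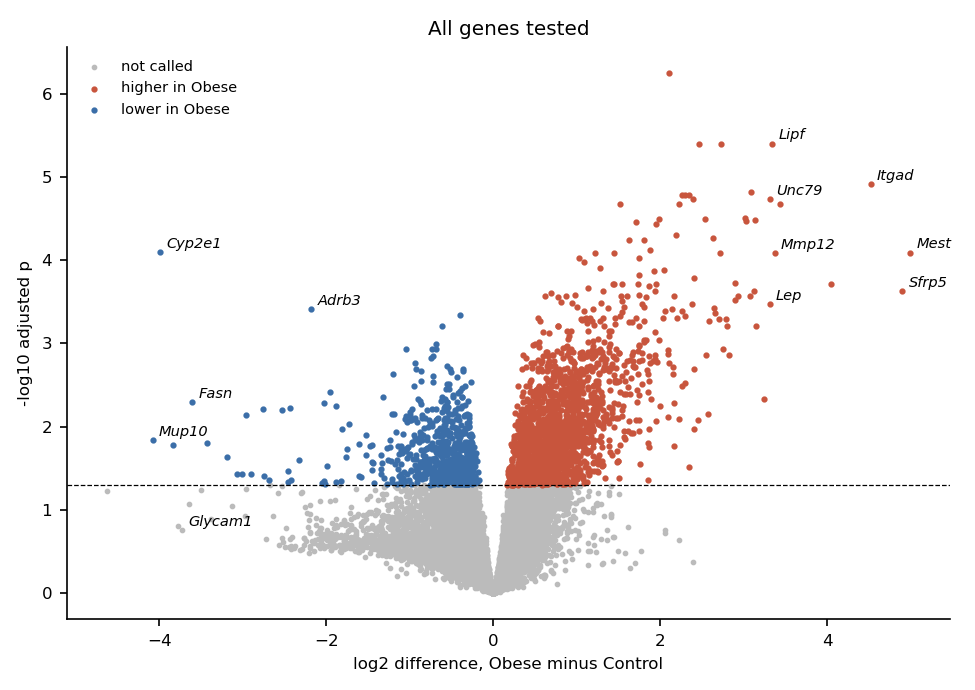
Log2 difference (Obese minus Control, horizontal) against -log10 adjusted p (vertical) for the 19387 genes tested, one point per gene, with the dashed line at an adjusted p of 0.05. Red points are the 1830 called rises and blue points the 666 called falls. Named genes include *Mest* and *Itgad* at the far right, *Cyp2e1* and *Fasn* at the left, and *Glycam1*, which was not called.

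*Mest*, *Lep* and *Itgad* rose and *Fasn* and *Cyp2e1* fell, and for none of these 5 genes did the groups overlap. *Mest* (chromosome 6, 30723547 to 30748465 in mm10, plus strand) is an imprinted gene expressed from the paternal copy and known as a marker of fat expansion. It had 400, 1642, 2367, 443 and 327 normalized counts in Control 1 to 5 and 31307, 24140, 28065, 13767 and 31645 in Obese 1 to 5. Every Obese library lay above every Control library, with Obese 4 the lowest of its group and Control 2 and 3 the highest of theirs. The log2 difference was 4.99 ± 0.69 (SE, n = 5 per group here and below, adjusted p 8.12e-05), and 4.55 with the lymph node covariate (adjusted p 0.000207). *Lep*, which encodes leptin (chromosome 6, 29060220 to 29073877, plus strand), had 5726, 15068, 19224, 14509 and 3863 in Control and 146334, 89864, 88661, 54354 and 143078 in Obese. The highest values were those of Obese 1 and 5, the libraries low in lymph node genes, but the lowest Obese value was still above the highest Control value. The log2 difference was 3.31 ± 0.53 (adjusted p 0.000334), and 2.81 with the covariate (adjusted p 0.000673).

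*Itgad* (chromosome 7, 128154376 to 128223816, plus strand) encodes the integrin alpha D chain, a receptor on the surface of tissue macrophages. Its normalized counts were 24.7, 110, 72.5, 10 and 35.3 in Control and 3648, 1778, 1474, 234 and 2801 in Obese. Obese 4 was far below the other Obese libraries and above every Control library. The log2 difference was 4.52 ± 0.51 (adjusted p 1.22e-05), and 4.31 with the covariate (adjusted p 2.31e-05). *Fasn* (chromosome 11, 120805846 to 120824547, minus strand), fatty acid synthase, had 40610, 16051, 136742, 480368 and 416800 in Control and 5726, 5526, 15363, 9256 and 14415 in Obese. The Control libraries spread widely, with Control 4 and 5 highest and Control 2 just above the highest Obese library. The log2 difference was -3.61 ± 0.81 (adjusted p 0.00508), and -3.40 with the covariate (adjusted p 0.0138). *Cyp2e1* (chromosome 7, 140763739 to 140774987, plus strand), a cytochrome P450 best known from liver that oxidises ethanol and other small molecules, had 7774, 4912, 10223, 36618 and 15636 in Control and 210, 370, 1341, 1118 and 1497 in Obese. Its log2 difference was -3.99 ± 0.55 (adjusted p 7.94e-05), and -3.88 with the covariate (adjusted p 0.000188). All 5 genes were called under each of the 21 other settings. Because their groups did not overlap, each had to differ in the same direction within all 4 lanes that held a pair. Within lanes, the difference of *Mest* ran from 3.55 to 6.20 and that of *Fasn* from -5.69 to -1.53.

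**Figure D3:**
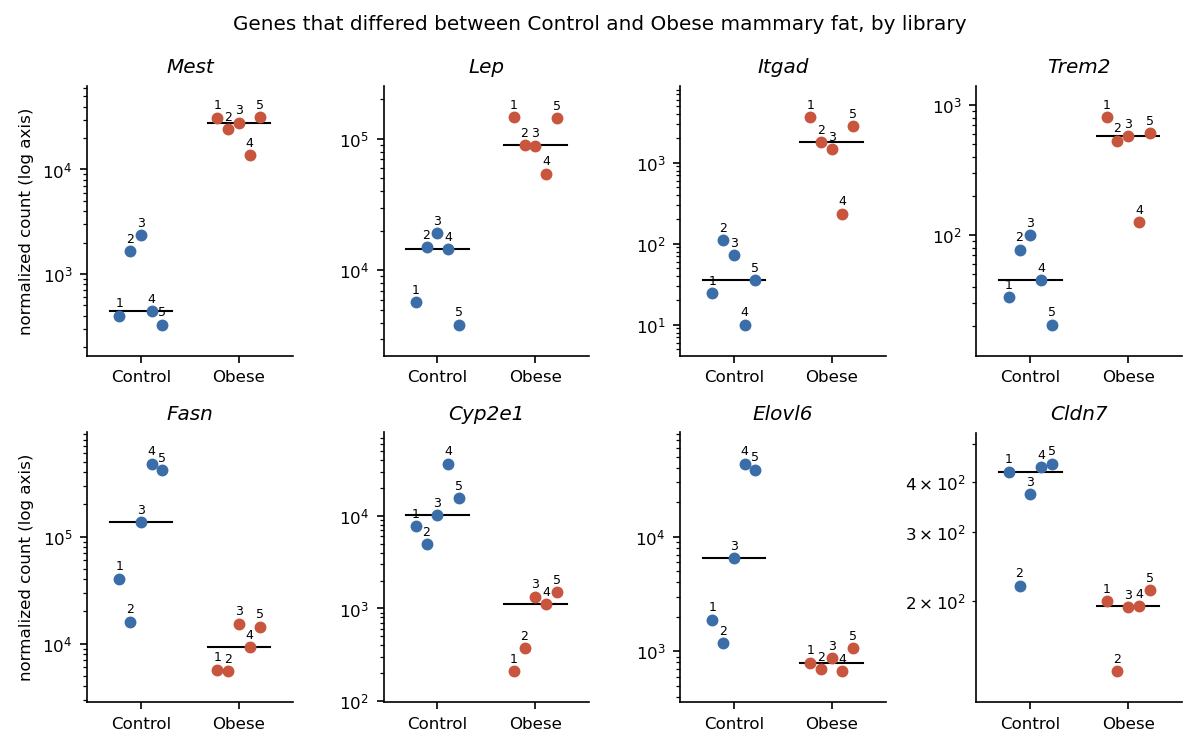
Normalized counts (vertical, log axes) of 8 genes in each Control and Obese library, one numbered point per library, with a line at the group median. *Mest*, *Lep*, *Itgad* and *Trem2* are higher in all 5 Obese libraries, with Obese 4 lowest among them, and *Fasn*, *Cyp2e1*, *Elovl6* and *Cldn7* are lower, with Control 2 lowest or nearly so among the Control libraries.

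Counts in 47 gene lists are read against the shares over all genes, 9.44% higher and 3.44% lower. The lists were written with earlier results of these data known, so their counts describe the lists and are no independent support. All 9 tested members of the fat expansion list, genes known to rise when white fat grows, rose in Obese, with a median log2 difference of 2.64 beside -0.03 over all genes. With the lymph node covariate 8 of 9 rose, with a median of 2.10 beside 0.00. *Sfrp5*, a secreted inhibitor of Wnt signals, had 159, 1335, 1205, 415 and 190 normalized counts in Control and 25435, 13463, 9825, 8125 and 24935 in Obese. Its groups were separated by a wide gap, and its log2 difference of 4.90 ± 0.75 was next to that of *Mest* (adjusted p 0.000237). *Trp53inp2*, a nuclear protein with a role in autophagy, had 3883, 3693, 8053, 4954 and 4761 in Control and 20764, 13926, 20133, 11145 and 18546 in Obese (log2 difference 1.75 ± 0.25, adjusted p 0.000149). *Bmp3*, a secreted member of the bone morphogenetic protein family, had 905, 2707, 3454, 1440 and 1359 in Control and 19511, 9531, 7366, 6898 and 17573 in Obese (log2 difference 2.64 ± 0.42, adjusted p 0.000377). *Npr3*, the clearance receptor for natriuretic peptides, had a log2 difference of 2.16 ± 0.48 (adjusted p 0.00514). *Cav1*, the main protein of caveolae in the adipocyte membrane, had one of 1.10 ± 0.29 (adjusted p 0.0137), a call that ended without Control 1, Obese 1 or Obese 5 (adjusted p up to 0.0579). Other settings ended the calls of *Npr3* with the luminal covariate and without the 8 libraries low in B cell markers (adjusted p 0.0708 and 0.0601), and of *Cav1* with the luminal covariate, in the 10 libraries alone and without the 8 libraries low in B cell markers (adjusted p 0.108, 0.0683 and 0.154).

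Several of the expansion genes are imprinted, and the list of imprinted growth genes had 6 rises among 16 tested and no fall, with a median of 0.66. With the covariate there were 4 rises. *Peg10*, a paternally expressed gene derived from a retrotransposon, had 150, 863, 312, 268 and 196 in Control and 12752, 13254, 2483, 1017 and 9332 in Obese. Obese 3 and 4 were the low Obese libraries and lay above the highest Control library, and the log2 difference was 4.04 ± 0.60 (adjusted p 0.000193). *Peg3*, a paternally expressed zinc finger protein, had 3797, 3573, 7800, 2195 and 2886 in Control and 54373, 25847, 15043, 16178 and 35892 in Obese (log2 difference 2.82 ± 0.53, adjusted p 0.00139). *Usp29*, its imprinted neighbour, was near the floor in Control, at 7.55, 2.04, 14.5, 1.67 and 0.821, and at 234, 125, 51.3, 46.3 and 96.4 in Obese (log2 difference 2.38 ± 0.38, adjusted p 0.000334). *Plagl1*, an imprinted zinc finger protein of the same list and of the expansion list, had a difference of 1.48 ± 0.44 (adjusted p 0.0265). That call ended with the lymph node covariate (adjusted p 0.0659) and without Control 1, Control 5, Obese 1 or Obese 5 (at most 0.103). *Sgce*, which shares its imprinted region with *Peg10*, had a difference of 0.87 ± 0.26 (adjusted p 0.0302), and its call ended with the covariate (adjusted p 0.0604) and without Control 1, 2 or 5 or Obese 1 or 5 (at most 0.112).

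**Figure D4:**
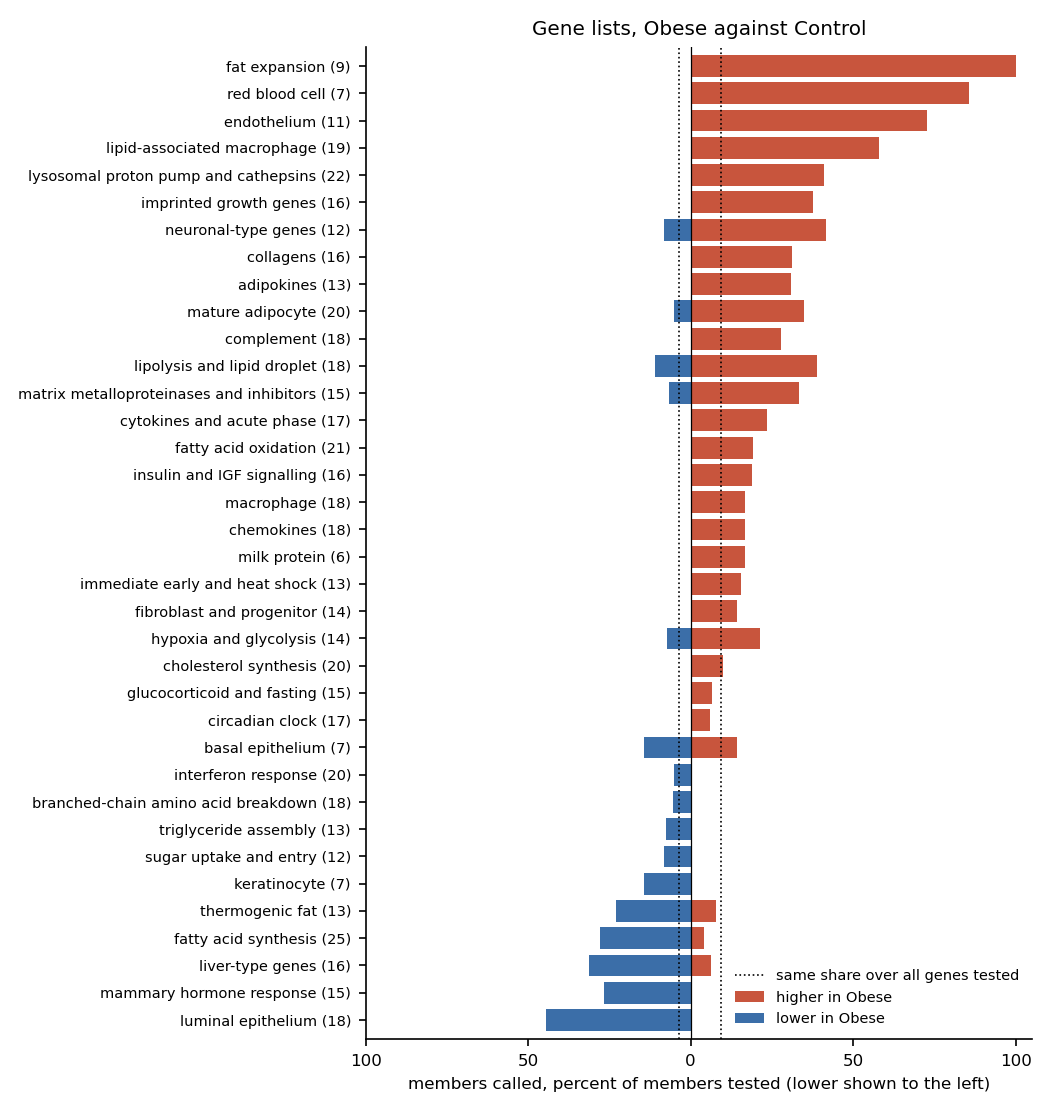
Share of tested members called higher (red, right) or lower (blue, left) in Obese for the 36 gene lists with at least 1 call; the number tested is in brackets and dotted lines mark the shares over all genes, 9.44% higher and 3.44% lower. Fat expansion, red blood cell, endothelium and lipid-associated macrophage lists lie furthest to the right and luminal epithelium furthest to the left.

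Among 13 adipokines, hormones and signals made by fat cells, 4 rose and none fell, and with the covariate 4 rose and 1 fell. Without Control 2 or Obese 5, 1 also fell. The genes that rose included *Lep*, *Apln* and *Rarres2*. *Apln*, the peptide apelin, had 87.9, 135, 219, 86.7 and 200 normalized counts in Control and 877, 426, 434, 294 and 749 in Obese (log2 difference 1.74 ± 0.27, adjusted p 0.000259). All Obese libraries were above all Control libraries for *Apln*. *Rarres2*, the precursor of chemerin, had a log2 difference of 1.00 ± 0.27 (adjusted p 0.0155), and its groups overlapped. That call ended without Control 1, Obese 1 or Obese 5 (at most 0.0656). *Adipoq*, which encodes adiponectin, had 16533, 22145, 40128, 44071 and 36496 in Control and 58948, 37384, 44549, 34606 and 77646 in Obese, groups that overlapped, and did not pass the test (log2 difference 0.70 ± 0.28, adjusted p 0.0988).

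Of 20 mature adipocyte markers, 7 rose and 1 fell, with a median of 0.44. The 7 rises became 2 with the lymph node covariate, 3 with the luminal covariate, none in the 10 libraries alone, none without the 8 libraries low in B cell markers and 4 with lane as a term. They also became 1 without Control 1, Obese 1 or Obese 5, 2 without Control 2 and 3 without Control 5. The mean of the list was 13.3 and 13.2 in Control 1 and 2, 14.4 to 14.8 in Control 3 to 5, 13.9 to 14.3 in Obese 2 to 4, and at least 14.9 in Obese 1 and 5, so that it was highest in the libraries low in lymph node genes. *Cd36*, the fatty acid transporter, had 34547, 40838, 89503, 77660 and 58363 in Control and 211542, 105792, 102471, 73649 and 164567 in Obese. The groups overlapped, and the difference was 1.12 ± 0.29 (adjusted p 0.014) and 0.70 with the covariate (adjusted p 0.0238). *Tusc5*, which takes part in the traffic of the insulin-sensitive glucose transporter, differed by 1.17 ± 0.28 (adjusted p 0.00731). *Aqp7*, the glycerol channel, differed by 1.10 ± 0.31 (adjusted p 0.0186). The calls of *Cd36* and *Aqp7* ended without Control 1, Obese 1 or Obese 5, and that of *Aqp7* also without Control 2 and with the covariate (adjusted p up to 0.0644 and 0.0858 without a library). Calls of *Cd36* in the 10 libraries alone and without the 8 libraries low in B cell markers (adjusted p 0.0812 and 0.122), and of *Tusc5* in the 10 libraries alone and without the 8 libraries low in B cell markers (adjusted p 0.0838 and 0.141), ended as well.

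The 1 fall among mature adipocyte markers was *Adrb3*, the beta-3 adrenergic receptor through which noradrenaline starts lipolysis in fat. It had 3876, 3596, 8996, 7265 and 10646 normalized counts in Control and 1363, 533, 1038, 1873 and 3226 in Obese. Every Obese library was below every Control library, and Obese 5, with the highest value of its group, was just under the lowest Control value. The log2 difference was -2.18 ± 0.35 (adjusted p 0.000391), and -2.31 with the covariate (adjusted p 0.000381), and the call held under all 21 other settings. In the list for lipolysis and lipid droplets, 7 of 18 genes rose and 2 fell, and 2 rose and 1 fell with the covariate. The 7 rises became 2 without Control 1, Control 2, Obese 1 or Obese 5 and 3 without Control 5. They were 2 with the luminal covariate, 1 in the 10 libraries alone, 1 without the 8 libraries low in B cell markers and 4 with lane as a term. *Hilpda*, a droplet protein induced by low oxygen that inhibits the main triglyceride lipase, had 226, 180, 232, 183 and 208 in Control and 750, 526, 327, 274 and 494 in Obese, with no overlap (log2 difference 1.04 ± 0.19, adjusted p 0.00132), and was called under every other setting. *Mgll*, the lipase of the last step, differed by 1.17 ± 0.29 (adjusted p 0.00936), and other settings ended the call of *Mgll* with the luminal covariate, in the 10 libraries alone and without the 8 libraries low in B cell markers (adjusted p 0.0542, 0.075 and 0.149).

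Genes of fatty acid synthesis were lower in Obese, where 7 of 25 tested members fell and 1 rose, with a median log2 difference of -0.83. With the lymph node covariate 3 fell and 1 rose, and the median was -0.81. With the luminal covariate 1 fell, in the 10 libraries alone 1, without the 8 libraries low in B cell markers 3, and with lane as a term or no filter 4. The falls numbered 3 without Control 4, Control 5 or Obese 1, 4 without Control 3, Obese 2, Obese 4 or Obese 5, and up to 10 across all single libraries left out. The list mean was 13.6 and 13.4 in Control 4 and 5, 12.5 in Control 3, 11.6 and 11.2 in Control 1 and 2, and 11.1 to 11.8 in Obese, so that Control 1 and 2 lay within the range of the Obese libraries. *Acaca*, acetyl-CoA carboxylase, which makes the building block used by *Fasn*, had 10509, 5282, 38323, 99055 and 81968 normalized counts in Control and 4950, 3216, 3547, 3760 and 5600 in Obese. Control 2 was below the highest Obese library, and the log2 difference was -2.76 ± 0.63 (adjusted p 0.00613). *Thrsp*, a small nuclear protein induced together with lipogenic enzymes, had 3439, 1374, 7459, 39274 and 27546 in Control and 840, 458, 1134, 1328 and 2100 in Obese (log2 difference -2.96 ± 0.70, adjusted p 0.00734). Further settings ended the calls of *Acaca* with the luminal covariate and in the 10 libraries alone (adjusted p 0.0697 and 0.0586), and of *Thrsp* with the luminal covariate and in the 10 libraries alone (adjusted p 0.0683 and 0.0696). *Elovl6*, which lengthens the product of *Fasn*, had 1896, 1185, 6471, 43640 and 38654 in Control and 793, 702, 872, 669 and 1071 in Obese. The groups of *Elovl6* did not overlap, but the 2 highest Control libraries were far above the other 3, and the difference of -3.19 ± 0.92 (adjusted p 0.0232) was lost with the covariate (adjusted p 0.0502) and without Control 4, Control 5 or Obese 1 (at most 0.0832).

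The other 3 enzymes of the 7 fell by smaller margins, with overlapping groups. *Acss2*, which activates acetate, had 1497, 960, 3739, 17748 and 11857 in Control and 867, 780, 1213, 1018 and 1100 in Obese (log2 difference -2.03 ± 0.67, adjusted p 0.0452). *Pnpla3*, a lipid droplet hydrolase regulated with lipogenesis, had 2291, 1668, 6720, 6159 and 8080 in Control and 928, 630, 2885, 1232 and 2282 in Obese (log2 difference -1.59 ± 0.51, adjusted p 0.0404). *Tkt*, transketolase of the pentose phosphate pathway, had 8685, 6365, 23323, 67364 and 46788 in Control and 7850, 5230, 6707, 6184 and 8997 in Obese (log2 difference -1.61 ± 0.51, adjusted p 0.039). All 3 calls ended with the covariate and without any 1 of Control 3, Control 4, Control 5, Obese 1, Obese 2, Obese 4 or Obese 5, and those of *Acss2* and *Tkt* also without Obese 3 (adjusted p up to 0.137, 0.118 and 0.122). *G6pdx*, the first enzyme of the pentose phosphate pathway, was the 1 member that rose, with 4030, 4418, 8289, 9572 and 5848 in Control and 19008, 9874, 8546, 8709 and 16035 in Obese. Its difference was 0.95 ± 0.26 (adjusted p 0.0171), and its call ended without Control 1, Obese 1 or Obese 5 (at most 0.0777).

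The 7 genes that fell were looked up in RefSeq promoter windows (build GRCm38.p6), using the 250 bases before each start, and all 7 matched. The motif CCAAT, bound by NF-Y, a partner of the sterol-responsive factors that drive lipogenic genes, was found on either strand in 4 of the 7. Of all 32851 windows of this length, 33.8% held it. The E-box CACGTG, held by 6.02% of all windows, and the sterol element TCACCCCAC, held by 0.496%, were in none of the 7. The only window of *Acaca* (chr11:84195188-84195437, plus strand) lies inside the gene, which starts at 84129672. Its lack of motifs therefore does not describe the bases before the first start. The 4 windows with CCAAT are shown 5′ to 3′ on the strand of the gene, because all 4 genes fell. Capitals mark CCAAT or, where the motif lies on the other strand, ATTGG. In *Fasn* (chr11:120824548-120824797, minus strand) the motif starts 90, 62 and 59 bases before the start, and the last pair overlaps. In *Thrsp* (chr7:97417551-97417800, minus strand) it lies at 79 and 52 bases, in *Acss2* (chr2:155517793-155518042, plus strand) at 73, and in *Pnpla3* (chr15:84167566-84167815, plus strand) at 99. A match describes letters only. *Mest*, *Lep*, *Cyp2e1* and *Itgad* were looked up too, and 10 of the 11 genes matched, all but *Itgad*. The window of *Cyp2e1*, which fell, held CCAAT 210 and 68 bases before the start, and those of *Mest* and *Lep*, which rose, held none of the 3 motifs. Starts here are those of RefSeq. By the GENCODE vM21 gene positions, all windows of *Mest* lie inside the gene. Those of *Cyp2e1*, *Thrsp* and *Elovl6* overlap the gene, and both motifs of *Thrsp* and that of *Cyp2e1* at 68 bases lie in the overlap.
Fasn: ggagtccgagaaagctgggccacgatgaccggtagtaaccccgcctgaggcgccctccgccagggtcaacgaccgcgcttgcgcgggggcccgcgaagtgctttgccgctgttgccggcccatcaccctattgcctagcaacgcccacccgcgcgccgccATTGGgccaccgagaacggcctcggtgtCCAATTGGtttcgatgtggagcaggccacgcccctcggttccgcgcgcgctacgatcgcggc
Thrsp: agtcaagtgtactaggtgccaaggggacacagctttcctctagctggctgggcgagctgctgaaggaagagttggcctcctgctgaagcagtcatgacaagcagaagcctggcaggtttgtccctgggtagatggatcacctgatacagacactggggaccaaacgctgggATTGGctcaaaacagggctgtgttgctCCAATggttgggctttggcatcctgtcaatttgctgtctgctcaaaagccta
Acss2: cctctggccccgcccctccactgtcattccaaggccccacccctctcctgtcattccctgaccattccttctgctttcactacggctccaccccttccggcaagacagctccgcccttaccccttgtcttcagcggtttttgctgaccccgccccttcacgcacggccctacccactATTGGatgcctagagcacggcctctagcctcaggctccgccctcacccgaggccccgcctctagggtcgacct
Pnpla3: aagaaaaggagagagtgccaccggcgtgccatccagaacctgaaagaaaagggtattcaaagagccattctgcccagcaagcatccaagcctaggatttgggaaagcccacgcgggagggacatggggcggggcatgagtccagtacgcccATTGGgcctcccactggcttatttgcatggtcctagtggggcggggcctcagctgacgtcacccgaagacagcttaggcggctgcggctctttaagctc

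Of 12 genes for sugar uptake and entry, 1 fell, *Slc2a5*, a fructose transporter. It had 40.5, 6.13, 134, 1046 and 913 in Control and 5.64, 4.7, 1.71, 3.73 and 9.41 in Obese, and its values in Control 4 and 5 were far above the rest. Its difference was -3.01 ± 0.95 (adjusted p 0.0368), and the call ended with the covariate and without Control 4, Control 5, Obese 1, Obese 2, Obese 3 or Obese 5 (at most 0.118). Of 13 genes of triglyceride assembly, 1 fell, *Lpin2*, a phosphatidate phosphatase, with 1671, 1646, 1749, 2687 and 1873 in Control and 1199, 1319, 1255, 1416 and 1155 in Obese (log2 difference -0.57 ± 0.16, adjusted p 0.0201). Its call ended with the covariate and without Control 4, Obese 1 or Obese 5 (at most 0.0618), and 2 genes of this list fell without Control 1 or Control 2. In fatty acid oxidation 4 of 21 rose, and 1 rose and 1 fell with the covariate. The 4 rises became 2 without Control 1 or Control 2 and 1 without Obese 1 or Obese 5. The count was 1 with the luminal covariate, 1 in the 10 libraries alone and 1 without the 8 libraries low in B cell markers. It was 2 with lane as a term, with no filter and after quantile normalization. *Cpt1a*, the carnitine transferase that admits long-chain fatty acids to mitochondria, had 4442, 4296, 4096, 3879 and 3964 in Control and 6774, 6074, 6034, 5120 and 6210 in Obese. The groups did not overlap, the difference was 0.54 ± 0.13 (adjusted p 0.00672), and the call held under every other setting.

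None of 19 citrate cycle genes and none of 30 oxidative phosphorylation genes passed the limma test or voom, with medians of -0.24 and -0.10, and 1 of each list had an unadjusted p under 0.05. Leaving out Control 2 or normalizing by quantiles gave 1 fall in the citrate cycle. Of 18 genes of branched-chain amino acid breakdown 1 fell, *Ppm1k*, the phosphatase that activates the pathway's dehydrogenase, with 1130, 1443, 1071, 1130 and 1318 in Control and 706, 986, 983, 1063 and 720 in Obese (log2 difference -0.45 ± 0.11, adjusted p 0.0104, and 0.0506 without Obese 1). Some other fits ended the calls of *Ppm1k* in the 10 libraries alone and without the 8 libraries low in B cell markers (adjusted p 0.0786 and 0.165), and of *Hsd17b7* with the luminal covariate and without the 8 libraries low in B cell markers (adjusted p 0.124 and 0.0993). Of 20 cholesterol synthesis genes 2 rose, a share near that over all genes, and the count was 1 without Obese 1 or Obese 5 and 4 without Obese 4. It was 0 with the luminal covariate and without the 8 libraries low in B cell markers, and 1 in the 10 libraries alone. *Hsd17b7*, of the late part of the pathway, differed by 0.73 ± 0.18 (adjusted p 0.00966) with no overlap between groups. *Hmgcs1*, of the early part, differed by 0.98 ± 0.26 (adjusted p 0.0155), and its call ended with the covariate and without Obese 1 or Obese 5 (at most 0.071).

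Of 13 thermogenic fat genes 3 fell and 1 rose, with a median of -0.49, and 2 fell and 1 rose with the lymph node covariate. The 3 falls became 1 without Control 3, Control 4, Control 5 or Obese 1 and none without Obese 5, and 2 rose without Control 3. None fell with the luminal covariate or without the 8 libraries low in B cell markers, and 1 in the 10 libraries alone or with voom. *Dio2*, the deiodinase that makes active thyroid hormone, had 42.6, 43.9, 61.6, 34.2 and 58.3 normalized counts in Control and 20.5, 16.5, 17.1, 11.2 and 5.49 in Obese, with no overlap. Its difference was -1.03 ± 0.28 (adjusted p 0.0181, and 0.0687 without Obese 5). *Cox8b*, a respiratory subunit typical of brown fat, had 231, 60.2, 991, 542 and 1105 in Control and 62.8, 107, 99.2, 66.5 and 82.3 in Obese (log2 difference -1.99 ± 0.60, adjusted p 0.03). *Cidea*, a lipid droplet protein of brown fat, had 174, 44.9, 1044, 636 and 2449 in Control and 81.8, 47, 109, 36.6 and 63.5 in Obese (log2 difference -2.42 ± 0.79, adjusted p 0.044). In both genes Control 3, 4 and 5 were high while Control 2 was as low as the Obese libraries. Both calls ended with the covariate and without Control 3, Control 4, Control 5, Obese 1 or Obese 5, and that of *Cidea* also without Obese 2 or Obese 4 (at most 0.0988 and 0.147). *Ucp1*, the uncoupling protein itself, had 128, 20.4, 1055, 119 and 3648 in Control and 156, 32.1, 20.5, 1.49 and 25.9 in Obese, and did not pass the test (log2 difference -2.64 ± 1.12, adjusted p 0.119). *Fgf21*, a fasting and stress hormone, rose, with 7.55, 4.08, 9.06, 9.17 and 9.85 in Control and 69.1, 26.6, 22.2, 12 and 29 in Obese (log2 difference 0.87 ± 0.20, adjusted p 0.00644). Other settings ended the calls of *Dio2* with the luminal covariate and without the 8 libraries low in B cell markers (adjusted p 0.113 and 0.0981), and of *Fgf21* in the 10 libraries alone and without the 8 libraries low in B cell markers (adjusted p 0.0596 and 0.128).

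Of 16 genes best known from liver that mammary fat also expressed, 5 fell and 1 rose, with or without the covariate. The rise was *Serpina1a* (adjusted p 0.0175). The abundant members *Ces1d*, *Fmo1* and *Ces1f* were not called (adjusted p 0.79, 0.971 and 0.629). The 5 falls became 3 without Obese 1. They were 2 with the luminal covariate and 3 without the 8 libraries low in B cell markers or with voom. *Cyp2f2*, a cytochrome P450 of lung and liver, had 451, 645, 931, 1615 and 858 in Control and 111, 216, 227, 379 and 121 in Obese, with no overlap (log2 difference -1.96 ± 0.42, adjusted p 0.00379), and was called under every other setting, as was *Cyp2e1*. *Mup10*, a major urinary protein that carries pheromones, had 487, 245, 873, 10013 and 3277 in Control and 14.8, 62.7, 66.7, 26.1 and 179 in Obese (log2 difference -4.08 ± 1.08, adjusted p 0.0145). *Mup18* had 288, 164, 518, 5590 and 1807 in Control and 12, 32.1, 29.1, 18.7 and 111 in Obese (log2 difference -3.84 ± 1.04, adjusted p 0.0166). Control 4 and 5 were the highest libraries for both, and both calls ended without Obese 1 (adjusted p 0.0517 and 0.0541). Further settings ended the calls of *Mup10* with the luminal covariate, without the 8 libraries low in B cell markers and with voom (adjusted p 0.138, 0.0779 and 0.0722), and of *Mup18* with the luminal covariate, without the 8 libraries low in B cell markers and with voom (adjusted p 0.148, 0.0723 and 0.0877). Major urinary protein genes are near-identical copies, so reads may be split among them and their single values are uncertain.

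In the general macrophage list 3 of 18 rose, with a median of 0.30, and with the covariate only *Itgad* remained. The 3 rises became 1 without Control 1, Control 5, Obese 1, Obese 2 or Obese 5. The count was 1 with the luminal covariate, 1 in the 10 libraries alone and 1 without the 8 libraries low in B cell markers. *Adgre1*, the F4/80 antigen, had 787, 1445, 1243, 1042 and 640 in Control and 2538, 2115, 1871, 886 and 2691 in Obese (log2 difference 0.92 ± 0.27, adjusted p 0.0265, at most 0.0981 without 1 of those libraries). *Cd68*, a lysosomal glycoprotein of macrophages, had 1419, 2494, 1404, 1368 and 1072 in Control and 3594, 3210, 2834, 1513 and 3078 in Obese (log2 difference 0.87 ± 0.27, adjusted p 0.0345). The call of *Cd68* ended with the covariate and without any 1 library other than Control 2 and Obese 4 (at most 0.114). In both genes Obese 4 lay within the Control range.

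The lipid-associated macrophage list, genes of the macrophages that surround large fat cells and digest lipid, had 11 rises among 19 tested and no fall, with a median of 1.04. With the covariate 8 rose, with a median of 0.71. The 11 rises became 7 without Control 1, Obese 1 or Obese 5. They were 7 in the 10 libraries alone and 6 without the 8 libraries low in B cell markers. The rises included *Lpl* and *Cd36*, which are also on the mature adipocyte list. *Cd9*, *Spp1*, *Apoe*, *Tyrobp*, *Itgax*, *Fabp5*, *Ctsd* and *Plin2* were not called (adjusted p 0.115 to 0.986). *Trem2*, a lipid receptor that marks these cells, had 33.6, 77.6, 99.7, 45 and 20.5 normalized counts in Control and 811, 534, 581, 126 and 609 in Obese. No library overlapped, Obese 4 was the lowest Obese value, and the log2 difference was 2.72 ± 0.38 (adjusted p 8.18e-05) and 2.33 with the covariate (adjusted p 0.000115). *Mmp12*, the macrophage elastase, had 157, 221, 181, 109 and 127 in Control and 3060, 1822, 2586, 503 and 2877 in Obese (log2 difference 3.37 ± 0.47, adjusted p 8.26e-05). *Gpnmb*, a lysosomal membrane glycoprotein, had 450, 550, 1038, 1009 and 350 in Control and 6540, 5295, 5129, 863 and 4873 in Obese (log2 difference 2.55 ± 0.47, adjusted p 0.00138). *Lgals3*, galectin-3, had 1310, 1908, 2265, 2465 and 1877 in Control and 8079, 5385, 5781, 2393 and 6433 in Obese (log2 difference 1.43 ± 0.21, adjusted p 0.000193). For *Gpnmb* and *Lgals3* Obese 4 was inside the Control range and the other 4 Obese libraries were above it. *Trem2*, *Mmp12*, *Gpnmb* and *Lgals3* were called under each of the 21 other settings. The list mean was 11.0 to 11.6 in Control, 11.6 in Obese 4 and 12.5 to 13.0 in the other Obese libraries.

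Lysosomal genes overlap with that list. Among 22 genes of the lysosomal proton pump and the cathepsins, 9 rose and none fell, and 5 rose with the covariate. The 9 rises became 4 without Control 1, Obese 1 or Obese 5. The count was 4 with the luminal covariate, 4 in the 10 libraries alone and 3 without the 8 libraries low in B cell markers. *Atp6v0d2*, a pump subunit of macrophages and osteoclasts, had 85.1, 111, 165, 75 and 34.5 in Control and 1394, 1041, 1060, 149 and 941 in Obese, with Obese 4 again inside the Control range (log2 difference 2.80 ± 0.48, adjusted p 0.000626). *Atp6v0a1*, a more widely expressed subunit, had 2333, 2969, 3338, 3785 and 2802 in Control and 11850, 7448, 6569, 4063 and 9962 in Obese, with no overlap (log2 difference 1.31 ± 0.20, adjusted p 0.000233). *Ctsl*, cathepsin L, had 6295, 7927, 8521, 8998 and 6528 in Control and 22859, 17005, 14961, 10203 and 21418 in Obese, with no overlap (log2 difference 1.13 ± 0.21, adjusted p 0.00126). These 3 genes were called under all 21 other settings. *Atp6v1b2*, of the pump's outer part, differed by 0.54 ± 0.11 (adjusted p 0.00346), and other settings ended the call of *Atp6v1b2* with the luminal covariate and without the 8 libraries low in B cell markers (adjusted p 0.0584 and 0.0762).

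Of 18 chemokines, 3 rose and none fell, and 1 rose with the covariate. The 3 became 1 without Control 1, Obese 1 or Obese 5 and 6 without Obese 4, and 1 chemokine fell without Control 1, Control 3 or Obese 3. The count of rises was 0 with the luminal covariate, 1 in the 10 libraries alone and 1 without the 8 libraries low in B cell markers. *Ccl11*, eotaxin, had 723, 1587, 1433, 1104 and 1135 in Control and 3901, 2122, 2548, 1897 and 3662 in Obese, with no overlap (log2 difference 1.21 ± 0.29, adjusted p 0.00793). Its call ended with the luminal covariate (adjusted p 0.0712). *Ccl7*, which attracts monocytes, differed by 1.40 ± 0.39 (adjusted p 0.02), and *Ccl9*, another monocyte chemokine, by 1.24 ± 0.38 (adjusted p 0.0345). Both calls ended with the covariate and without Control 1, Obese 1 or Obese 5, that of *Ccl7* also without Control 4, and that of *Ccl9* also without Control 3, Control 5 or Obese 2 (at most 0.0896 and 0.121). *Cxcl10*, an interferon-induced chemokine, had 233, 380, 236, 535 and 575 in Control and 231, 214, 376, 145 and 140 in Obese and did not pass the test (log2 difference -0.74 ± 0.25, adjusted p 0.0517).

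Of 17 cytokine and acute phase genes, 4 rose and none fell. With the lymph node covariate 3 rose. The count was 1 with the luminal covariate, 2 in the 10 libraries alone and 1 without the 8 libraries low in B cell markers. *Hp*, haptoglobin, which binds free hemoglobin, had 1615, 3131, 4520, 5902 and 3335 normalized counts in Control and 17838, 13533, 18239, 9293 and 33111 in Obese. The groups did not overlap, and the difference was 2.30 ± 0.48 (adjusted p 0.00297) and 1.76 with the covariate (adjusted p 0.00707). *Saa3*, a serum amyloid A made in fat, had 6.87, 28.6, 7.25, 10.8 and 25.4 in Control and 474, 88.5, 42.8, 14.2 and 356 in Obese, highest in Obese 1 and 5 (log2 difference 1.95 ± 0.47, adjusted p 0.00845). Some other fits ended the calls of *Hp* with the luminal covariate (adjusted p 0.0512), and of *Saa3* in the 10 libraries alone and without the 8 libraries low in B cell markers (adjusted p 0.106 and 0.129). *Serpina3n*, a protease inhibitor, differed by 1.29 ± 0.34 (adjusted p 0.0153), a call that ended with the covariate and without Control 1 or Obese 5 (at most 0.0596). *Il1rn*, the interleukin-1 receptor antagonist, had 118, 153, 120, 84.2 and 72.2 in Control and 775, 483, 441, 71 and 396 in Obese, with Obese 4 below the lowest Control value (log2 difference 1.52 ± 0.41, adjusted p 0.0168, and 0.0761 without Obese 1).

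Of 18 complement genes 5 rose and none fell, and with the covariate 3 rose and 1 fell. The 5 became 3 without Control 1, Control 5, Obese 1 or Obese 5, 2 with the luminal covariate or in the 10 libraries alone, and none without the 8 libraries low in B cell markers. *C3ar1*, the C3a receptor on macrophages, had 229, 429, 649, 497 and 246 in Control and 2184, 1615, 1421, 427 and 1917 in Obese, with Obese 4 inside the Control range (log2 difference 1.74 ± 0.42, adjusted p 0.00835). *Serping1*, the C1 inhibitor, differed by 1.04 ± 0.26 (adjusted p 0.00938), *C4b* by 0.95 ± 0.24 (adjusted p 0.011) and *Cfb*, factor B, by 0.54 ± 0.15 (adjusted p 0.0222). The call of *Cfb* ended with the covariate and without Control 1, Control 5, Obese 1 or Obese 5 (at most 0.0859). Other settings ended the calls of *C3ar1* without the 8 libraries low in B cell markers (adjusted p 0.0609), of *Serping1* with the luminal covariate and without the 8 libraries low in B cell markers (adjusted p 0.0695 and 0.0973), and of *C4b* in the 10 libraries alone and without the 8 libraries low in B cell markers (adjusted p 0.0543 and 0.208). Lists of B cell, T and NK cell, lymph node, neutrophil and mast cell markers held no call in limma or voom. At an unadjusted p under 0.05 there was 1 T and NK cell gene, 1 lymph node gene and 0 of the others. The medians of the first 3 of these lists were -2.25, -1.79 and -1.54, and 0.33, -0.04 and -0.08 with the covariate.

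Endothelial markers rose, 8 of 11 tested and none down, with a median of 0.63, and 7 rose with the covariate, with a median of 0.40. The 8 became 5 without Obese 1 or Obese 5. The count was 5 with the luminal covariate, 5 in the 10 libraries alone and 3 without the 8 libraries low in B cell markers. *Cdh5*, the cadherin of vessel junctions, had 5137, 5574, 7158, 5809 and 5891 normalized counts in Control and 15535, 10311, 9215, 7937 and 13690 in Obese. All Obese libraries were above all Control libraries, and the difference was 0.90 ± 0.21 (adjusted p 0.00764). *Tie1*, a receptor kinase of vessels, had 1469, 1309, 1767, 1571 and 1365 in Control and 2972, 2163, 2256, 1985 and 2897 in Obese (log2 difference 0.69 ± 0.15, adjusted p 0.00508). *Pecam1*, CD31, had 10269, 11033, 9655, 8154 and 8824 in Control and 13249, 12875, 12541, 12697 and 11818 in Obese (log2 difference 0.40 ± 0.10, adjusted p 0.00818). *Erg*, a transcription factor of endothelium, differed by 0.63 ± 0.15 (adjusted p 0.00845). None of these 4 genes had overlapping groups, and *Cdh5* and *Tie1* were called under every other setting. Some settings ended the calls of *Pecam1* with the luminal covariate, without the 8 libraries low in B cell markers and after quantile normalization (adjusted p 0.0864, 0.0504 and 0.161), and of *Erg* with the luminal covariate (adjusted p 0.0579). Smooth muscle and pericyte markers held no call among 9 in limma or voom, with 3 at an unadjusted p under 0.05, and 2 with a luminal epithelium covariate and 1 without Obese 4.

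Of 16 collagen genes 5 rose and none fell, with a median of 0.71, and 3 rose with the covariate, with a median of 0.30. The 5 became 3 without Control 1, Control 5 or Obese 1, 2 without Obese 5 and 8 without Obese 4. They were 1 with the luminal covariate and 3 in the 10 libraries alone, without the 8 libraries low in B cell markers, with lane as a term or with no filter. *Col4a2*, of the basement membrane that wraps adipocytes and vessels, had 11649, 13568, 18988, 15798 and 11762 in Control and 42709, 32638, 35314, 20898 and 58500 in Obese, with no overlap (log2 difference 1.35 ± 0.26, adjusted p 0.00154), and was called under every other setting. *Col4a1*, its partner chain, differed by 0.99 ± 0.26 (adjusted p 0.0129, and 0.0565 without Obese 5). *Col18a1*, also of basement membranes and the source of endostatin, differed by 1.17 ± 0.29 (adjusted p 0.00938). The calls of *Col4a1* and *Col18a1* also ended with the luminal covariate (adjusted p 0.0629 and 0.0612). *Col5a1*, a fibril collagen, differed by 0.97 ± 0.31 (adjusted p 0.0369), a call that ended with the covariate and without Control 1, Control 5, Obese 1, Obese 3 or Obese 5 (at most 0.134). Of 15 matrix metalloproteinases and inhibitors 5 rose and 1 fell, and 2 rose and 1 fell with the covariate. The 5 became 3 without Control 1 or Control 2, 2 without Control 5 and 1 without Obese 1 or Obese 5. The count of rises was 2 with the luminal covariate, 3 in the 10 libraries alone and 1 without the 8 libraries low in B cell markers. *Mmp23*, a metalloproteinase, differed by 0.90 ± 0.24 (adjusted p 0.0147, at most 0.0691 without Obese 1 or Obese 5). *Timp4*, an inhibitor made by fat cells, had 1083, 1858, 3320, 2143 and 1082 in Control and 11041, 4336, 3920, 4525 and 8486 in Obese (log2 difference 1.76 ± 0.52, adjusted p 0.0279), a call that ended with the covariate and without Control 1, Control 5, Obese 1 or Obese 5 (at most 0.102). *Mmp15*, a membrane-bound metalloproteinase, fell by a log2 difference of -0.60 ± 0.16 (adjusted p 0.0156, and 0.0605 without Control 5). Further settings ended the calls of *Mmp23* with the luminal covariate and without the 8 libraries low in B cell markers (adjusted p 0.0501 and 0.166), and of *Mmp15* with the luminal covariate and in the 10 libraries alone (adjusted p 0.408 and 0.0655).

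In the fibroblast and progenitor list 2 of 14 rose, and 1 without Control 1, 2 or 5 or Obese 1 or 5. It was also 1 with either covariate, in the 10 libraries alone, without the 8 libraries low in B cell markers and with lane as a term. *Pdgfrb*, a growth factor receptor of pericytes and adipocyte precursors, had 2044, 2569, 2606, 2483 and 1732 in Control and 4468, 3584, 3492, 2998 and 5014 in Obese, with no overlap (log2 difference 0.76 ± 0.18, adjusted p 0.00725), and was called under every other setting. *Gsn*, gelsolin, differed by 1.02 ± 0.33 (adjusted p 0.0399), a call that ended with the covariate and without Control 1, 2 or 5 or Obese 1 or 5 (at most 0.144). Red blood cell genes rose in 6 of 7, with a median of 1.73, and 1.44 with the covariate. Their mean was 8.51 to 9.05 in Control and 9.42 to 11.6 in Obese, and the part of blood content in the other results was not tested. *Alas2*, the first enzyme of heme synthesis in red cells, had 153, 133, 143, 201 and 230 normalized counts in Control and 1535, 389, 279, 572 and 805 in Obese. *Hbb-bs*, a beta globin, had 3799, 3403, 4668, 5160 and 5076 in Control and 37466, 10834, 7742, 15107 and 19092 in Obese. In both genes every Obese library was above every Control library and Obese 1 was far above the rest. The log2 difference was 1.69 ± 0.33 for *Alas2* (adjusted p 0.00194) and 1.83 ± 0.32 for *Hbb-bs* (adjusted p 0.00092). The alpha globins *Hba-a1* and *Hba-a2* differed by 1.81 ± 0.32 and 1.73 ± 0.32 (adjusted p 0.00092 and 0.00125). Globin genes are near-identical copies, so the split of reads among them is uncertain.

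Luminal epithelium, the milk-secreting lining, was lower in Obese, with 8 of 18 markers falling and none rising and a median of -0.88. With the lymph node covariate 6 fell, with a median of -1.0. The count ranged from 1 without Control 1 to 13 without Control 2, and was 3 without Control 3 or 4, 2 without Control 5, 2 without Obese 1, 3 without Obese 2 or 3, and 5 without Obese 5. It was 0 with the luminal covariate, which is built from these genes, 2 in the 10 libraries alone, 1 without the 8 libraries low in B cell markers, 5 with lane as a term and 4 with no filter. The list mean was 10.2 in Control 2 and 11.1 to 11.5 in the other Control libraries, against 9.79 to 10.3 in Obese, so that Control 2 lay inside the Obese range. *Cldn7*, a tight junction protein, had 426, 219, 373, 437 and 446 normalized counts in Control and 200, 133, 193, 194 and 213 in Obese, with no overlap (log2 difference -0.91 ± 0.22, adjusted p 0.00885). *Epcam*, an epithelial adhesion molecule, had 4011, 1759, 2742, 3602 and 3266 in Control and 1762, 1258, 1365, 1895 and 2105 in Obese (log2 difference -0.84 ± 0.24, adjusted p 0.0221, at most 0.0772 without Control 1, Control 5 or Obese 2). In the fits other than that with the luminal covariate, the call of *Epcam* also ended in the 10 libraries alone and without the 8 libraries low in B cell markers (adjusted p 0.058 and 0.0538). *Prom1*, a membrane protein of luminal cells, had 1120, 208, 1189, 1973 and 846 in Control and 289, 280, 181, 396 and 427 in Obese (log2 difference -1.44 ± 0.43, adjusted p 0.027). *Gata3*, the luminal transcription factor, had 2730, 1513, 2731, 2854 and 3297 in Control and 1456, 1541, 1059, 1394 and 1871 in Obese (log2 difference -0.81 ± 0.25, adjusted p 0.0368). The calls of *Prom1* and *Gata3* ended without Control 1, 3, 4 or 5 or Obese 1 or 3 (at most 0.0742 and 0.0999).

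Of 15 genes of mammary hormone response 4 fell and none rose. With the lymph node covariate 1 fell, and with the luminal covariate none. Of the 4, *Areg* and *Pgr* are on the luminal list that makes up the luminal covariate, so their loss there is partly built in. In the 10 libraries alone 2 fell, without the 8 libraries low in B cell markers none, and with lane as a term, no filter or voom 2. The 4 became 1 without Control 1 or Obese 1 and 2 without Control 3, Control 5, Obese 2 or Obese 5. *Areg*, amphiregulin, the growth factor through which estrogen drives duct growth, had 1645, 890, 1713, 336 and 326 in Control and 75.5, 34.5, 308, 187 and 49.4 in Obese. The groups did not overlap, although Control 4 and 5 were only just above Obese 3. Its difference was -2.69 ± 0.88 (adjusted p 0.0432), and the call ended with the lymph node covariate and without Control 1, 2 or 3 or Obese 1, 2 or 5 (at most 0.116). *Pgr*, the progesterone receptor, had 2063, 818, 2843, 3267 and 1404 in Control and 830, 227, 253, 1191 and 239 in Obese (log2 difference -2.05 ± 0.68, adjusted p 0.0478), a call that ended with the lymph node covariate and without Control 1, 3, 4 or 5 or Obese 1, 2, 3 or 5 (at most 0.134). *Stat5a*, the transcription factor of prolactin signalling, had 3093, 2001, 3298, 3717 and 2666 in Control and 2001, 1662, 1828, 2328 and 1997 in Obese (log2 difference -0.56 ± 0.14, adjusted p 0.00845). Some other fits ended the call of *Stat5a* with the luminal covariate, in the 10 libraries alone and without the 8 libraries low in B cell markers (adjusted p 0.204, 0.0667 and 0.0571). *Rab11fip1*, a protein of membrane recycling, differed by -0.58 ± 0.16 (adjusted p 0.0174), a call that ended with the lymph node covariate and without Control 1, Control 5 or Obese 1 (at most 0.0631).

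In the 7 basal epithelium markers *Trp63*, the basal transcription factor, fell, with 1252, 300, 705, 847 and 712 in Control and 289, 326, 229, 381 and 316 in Obese (log2 difference -1.13 ± 0.32, adjusted p 0.0215, at most 0.0839 without Control 1 or Obese 1). *Oxtr*, the oxytocin receptor, rose, with 5086, 1515, 4761, 6193 and 3575 in Control and 10946, 6701, 6330, 5929 and 12653 in Obese. Its difference was 1.08 ± 0.34 (adjusted p 0.0394), and the call ended with the lymph node covariate and without Control 1, 2 or 5 or Obese 1 or 5 (at most 0.133). Of 6 tested milk protein genes 1 rose, and 2 without Control 4. It was *Mfge8*, which is also made by macrophages and vessels and marks dying cells for uptake, with 22978, 18189, 16788, 15527 and 15017 in Control and 58382, 29499, 24430, 23659 and 43709 in Obese (log2 difference 0.95 ± 0.19, adjusted p 0.00245). Other settings ended the call of *Mfge8* in the 10 libraries alone and without the 8 libraries low in B cell markers (adjusted p 0.0583 and 0.0695). Of 7 keratinocyte markers 1 fell, *Krt15*, with 402, 136, 54.4, 217 and 43.5 in Control and 13.4, 29.8, 88.9, 12.7 and 39.2 in Obese (log2 difference -1.52 ± 0.43, adjusted p 0.022, at most 0.091 without Control 1, Control 4 or Obese 1). The part of epithelial content in the other falls was not tested beyond the fit with the luminal covariate, in which 186 genes fell and 850 rose.

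Genes better known from nerve cells were among the largest rises, and their list was also written with earlier results of these data known. Of 12 tested, 5 rose and 1 fell, with or without the lymph node covariate, and the 5 rises were all called under every one of the 21 other settings. *Unc79*, a part of a sodium leak channel complex, had 57.7, 70.5, 34.4, 49.2 and 18.9 normalized counts in Control and 867, 644, 626, 339 and 919 in Obese (log2 difference 3.31 ± 0.40, adjusted p 1.83e-05). *Cdkl4*, a cyclin-dependent kinase-like protein, had 41.2, 67.4, 56.2, 45.8 and 26.3 in Control and 1433, 679, 371, 395 and 1445 in Obese (log2 difference 3.44 ± 0.42, adjusted p 2.13e-05). *Tph2*, the neuronal enzyme of serotonin synthesis, was near the floor in Control at 2.06, 13.3, 5.44, 6.67 and 4.92 and had 109, 262, 657, 41.1 and 326 in Obese. Obese 3 was highest for *Tph2* and Obese 4 lowest, and the difference was 3.14 ± 0.40 (adjusted p 3.32e-05). *Gabrr2*, a GABA receptor subunit, had 71.4, 74.5, 94.2, 18.3 and 50.9 in Control and 1122, 668, 677, 406 and 693 in Obese (log2 difference 3.12 ± 0.48, adjusted p 0.000237). *Cacna1e*, a calcium channel subunit, had 1608, 3198, 1687, 983 and 1290 in Control and 15032, 8426, 3571, 4409 and 10299 in Obese (log2 difference 2.15 ± 0.43, adjusted p 0.00234). For none of these 5 did the groups overlap. *Nrxn3*, a synaptic adhesion protein, went the other way, with 570, 14.3, 556, 1037 and 428 in Control and 53.6, 29, 1.71, 79.9 and 45.5 in Obese. Its difference of -2.67 ± 0.90 had an adjusted p just under the threshold (0.05 when rounded), and the call ended without any 1 library other than Control 2 and Obese 4 (at most 0.119). The *Nrxn3* call also ended with the luminal covariate (adjusted p 0.871), in the 10 libraries alone (0.0852) and without the 8 libraries low in B cell markers (0.182). Lane as a term, no filter, either offset, quantile normalization and voom ended it too (adjusted p 0.0528 to 0.141).

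The other genes among the 15 largest rises with a mean count of at least 50 belong to different families. *Lipf*, a lipase known from the stomach, was at 0, 13.3, 1.81, 0.834 and 2.46 normalized counts in Control and 216, 317, 311, 38.8 and 173 in Obese. Control 1 had none and Obese 4 was the lowest of its group, and the difference was 3.34 ± 0.35 (adjusted p 3.98e-06). *Mrc2*, a receptor that takes up collagen fragments, had 476, 1015, 888, 702 and 383 in Control and 8853, 6243, 5297, 2440 and 8853 in Obese (log2 difference 3.09 ± 0.36, adjusted p 1.5e-05). *Trim67*, a ubiquitin ligase best known from brain, had 50.8, 66.4, 187, 76.7 and 113 in Control and 1378, 756, 1173, 509 and 1177 in Obese (log2 difference 3.07 ± 0.48, adjusted p 0.000267). *Klf14*, an imprinted transcription factor, had 26.8, 70.5, 58, 57.5 and 28.7 in Control and 750, 440, 465, 356 and 894 in Obese (log2 difference 3.03 ± 0.39, adjusted p 3.35e-05). All 4 kept groups apart and were called under every other setting.

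Among the 15 largest falls, 4 were segments of immunoglobulin genes and 1 was *Bpifb3*, a member of the BPI fold family of lipid-binding proteins. *Bpifb3* had 235, 253, 103, 102 and 121 in Control and 0, 23.5, 27.4, 26.9 and 0.784 in Obese, lowest in Obese 1 and 5, the libraries low in lymph node genes. Its difference was -2.53 ± 0.59 (adjusted p 0.00638), and -1.58 with the lymph node covariate (adjusted p 0.00158), and it was called under every other setting. *Igkv3-2* had 277, 1351, 8561, 235 and 137 in Control and 0, 90.1, 87.2, 294 and 1.57 in Obese (log2 difference -3.43 ± 0.92, adjusted p 0.0157). *Ighv1-76* differed by -3.07 ± 0.97, *Ighv11-2* by -2.90 ± 0.91 and *Igkv14-126* by -2.75 ± 0.88 (adjusted p 0.0367, 0.0369 and 0.0389). Single libraries carried high values, such as 8561 for *Igkv3-2* in Control 3 and 3405 for *Ighv11-2* in Control 2. All 4 segment calls ended with the covariate (adjusted p 0.0517, 0.138, 0.106 and 0.113) and without Obese 1 or Obese 5. They also ended without Control 2 except for *Igkv3-2*, without Control 3 for *Ighv1-76*, without Control 1 for *Igkv14-126*, and without Control 5 for *Ighv11-2* and *Igkv14-126* (at most 0.0699, 0.123, 0.119 and 0.122). Such segments resemble each other closely, so reads may be split among them.

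Signalling lists moved in few members. Of 14 hypoxia and glycolysis genes 3 rose and 1 fell, and 2 rose and 1 fell with the lymph node covariate. *Ndrg1*, a stress protein induced by low oxygen, had 3083, 3316, 3983, 4061 and 2912 in Control and 10634, 7102, 5170, 5963 and 8736 in Obese (log2 difference 1.07 ± 0.20, adjusted p 0.00151). *Adm*, adrenomedullin, a peptide that widens vessels, had 200, 200, 353, 267 and 122 in Control and 1305, 456, 617, 426 and 731 in Obese (log2 difference 1.48 ± 0.31, adjusted p 0.00287). Both kept their groups apart and were called under every other setting. *Egln3*, an oxygen-sensing prolyl hydroxylase, was the fall, with a difference of -0.74 ± 0.20 (adjusted p 0.0183, and 0.0643 without Control 5). Further settings ended the call of *Egln3* with the luminal covariate and in the 10 libraries alone (adjusted p 0.219 and 0.0633). Of 16 insulin and IGF signalling genes 3 rose, and none with the covariate. The 3 became 1 without Control 1 or Control 4 and none without Control 5, Obese 1 or Obese 5. They were none with the luminal covariate or without the 8 libraries low in B cell markers, and 1 in the 10 libraries alone or with lane as a term. *Igfbp3*, the main carrier of IGF-1 in blood, had 3809, 4258, 3276, 2308 and 2426 in Control and 12408, 10701, 5165, 4615 and 8615 in Obese (log2 difference 1.30 ± 0.38, adjusted p 0.0256, at most 0.0966 without Control 4, Control 5, Obese 1, Obese 2 or Obese 5). *Igfbp4*, a related carrier, differed by 0.73 ± 0.23 (adjusted p 0.0379, at most 0.138 without Control 1, Control 5, Obese 1 or Obese 5). *Akt1*, a kinase of insulin signalling, differed by 0.18 ± 0.06 (adjusted p 0.0485, at most 0.161 without Control 1, 3, 4 or 5 or Obese 1 or 5).

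Of 17 circadian clock genes 1 rose, *Cry2*, a repressor of the clock, by 0.71 ± 0.22 (adjusted p 0.0344). Its call ended with the covariate and without Control 1, 2 or 5 or Obese 1 or 5 (at most 0.126), and 7 clock genes rose without Control 4. With the covariate 0 clock genes rose and 1 fell. Of 15 glucocorticoid and fasting genes 1 rose, *Fgf21*, and 4 without Control 4 and 2 without Obese 4. Of 13 immediate early and heat shock genes 2 rose, *Atf3*, a stress transcription factor, by 1.12 ± 0.31 (adjusted p 0.0189), and *Ier3*, an early response gene, by 0.75 ± 0.23 (adjusted p 0.0283). Both calls ended with the covariate and without Obese 1 or Obese 5, and that of *Ier3* also without Control 1, 2 or 5 (at most 0.0885 and 0.119). The mean of that list was 10.4 in Obese 1 and 9.21 to 9.54 in the other 9 libraries. None of 18 cell division genes passed the limma test under any setting, voom included, and 0 had an unadjusted p under 0.05. Of 12 skeletal muscle genes and 10 Schwann cell and nerve genes, 0 passed limma or voom and 0 had an unadjusted p under 0.05. In the Schwann cell and nerve list 1 gene fell with the lymph node covariate or without Control 2, and 1 rose without Control 4.

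The lymph node covariate also brought genes in. *Gpx3*, a secreted glutathione peroxidase, had 23198, 13180, 25095, 31546 and 12531 normalized counts in Control and 12832, 7207, 5134, 13002 and 13493 in Obese. Its groups overlapped, and its difference was -1.04 ± 0.38 (adjusted p 0.0685) without the covariate and -1.47 with it (adjusted p 0.00388). *Ubd*, a ubiquitin-like protein of antigen-presenting cells, had 983, 1282, 781, 583 and 931 in Control and 1847, 1905, 2150, 1123 and 1656 in Obese, and its difference went from 0.92 ± 0.42 (adjusted p 0.144) to 1.45 (adjusted p 0.00628). *Nek4*, a kinase, went from -0.31 ± 0.11 (adjusted p 0.07) to -0.45 (adjusted p 0.00136), and *Pygo1*, a factor of Wnt signalling, from -0.33 ± 0.16 (adjusted p 0.185) to -0.56 (adjusted p 0.00184). In the other direction *Ddah2*, which breaks down an inhibitor of nitric oxide synthesis, went from 0.63 ± 0.16 (adjusted p 0.014) to 0.48 with the covariate (adjusted p 0.0512). *Ankrd29*, an ankyrin repeat protein, went from 1.39 ± 0.37 (adjusted p 0.0143) to 1.04 (adjusted p 0.0527). The last pair was also not called without Obese 1 or Obese 5 (adjusted p up to 0.063 and 0.0534).

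**Figure D5:**
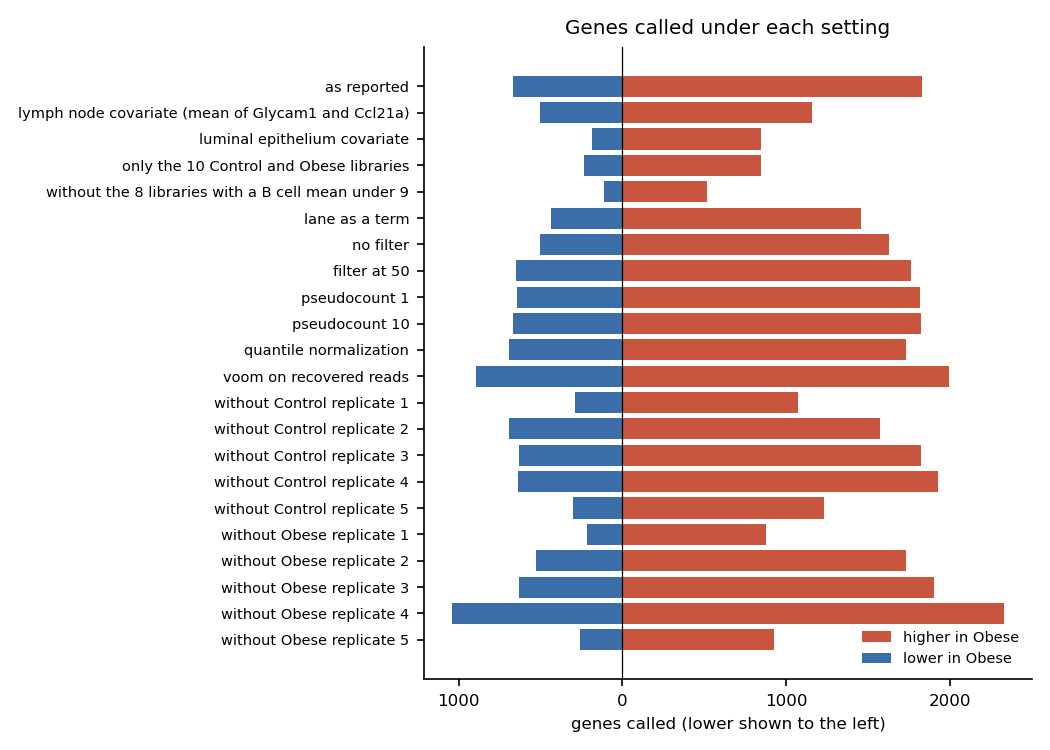
Number of genes called higher (red, right) or lower (blue, left) in Obese under the fit described and under each of the 21 other settings. The bars are shortest without the 8 libraries low in B cell markers, at 515 and 113, and longest without Obese 4, at 2334 and 1043.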

How the data were processed

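RNA of 29 mammary fat pads was sequenced as paired reads of 76 bases from stranded total RNA libraries, per the labels' protocols. Reads were aligned to mm10 with TopHat2 2.0.7, counted per gene with HTSeq 0.5.3p9 and handled with DESeq2 (version not given in the sources used here), per the submitters' processing notes. The deposited table holds log2 variance-stabilised values. Undoing that transform gave normalized counts, and whole reads for 100% of values within 0.01. Genes with a normalized count of at least 10 in at least 4 libraries were kept (19387 of 30818). limma 3.58.1 (R 4.3.3, statmod 1.5.0; trended, robust moderation) fitted 1 mean per group over all 29 libraries to the log2 values, and p-values were adjusted by Benjamini and Hochberg. The lymph node covariate is the mean log2 value of *Glycam1* and *Ccl21a*. The scripts were tested on simulated data.

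Within-group pairs of libraries differed by more than counting noise (chi-square per gene 23.0 to 329), so none was a copy. Groups, lists and members were chosen with earlier results of these data known. The named-gene rule took the 5 marker genes, the 15 largest called rises and falls with a mean count of at least 50, up to 4 members of each list with the smallest adjusted p, *Glycam1*, *Ccl21a*, *Adipoq*, *Adgre1*, and genes called only with or only without the covariate. *Bmp3*, *Npr3*, *Cav1*, *Plagl1*, *Sgce*, *Tkt*, *Pnpla3*, *Acss2*, *Ucp1*, *Gpnmb*, *Cacna1e*, *Serpina1a*, *Ces1d*, *Fmo1* and *Ces1f* were named after their values were seen. Gene positions are from GENCODE vM21. Alternatives were other filters, offsets of 1 and 10 on the log scale, quantile normalization, voom on the recovered reads, lane or luminal epithelium as a term, the 10 libraries alone, no libraries low in B cell markers, and each library left out. Some genes that the rule takes are not reported here.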

Additional observations from a re-analysis of the deposited data

Results flagged for a closer look

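Of 260 groups checked, each being the Control or the Obese values of a named gene, 15 held 1 library apart. That library stood further from the others on the log2 scale than the 95% limit for a single outlying value among 5. Chance flags about 1 in 20 groups. Obese 4 was the library apart in 5 of them, each time lowest of its group and each time in a macrophage or lysosome gene. It had 1513 normalized counts of *Cd68* against 2834 to 3594 in the other Obese libraries, 126 of *Trem2* against 534 to 811, 149 of *Atp6v0d2* against 941 to 1394, 427 of *C3ar1* against 1421 to 2184, and 863 of *Gpnmb* against 4873 to 6540.

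Control 2 was the library apart in 5. It was lowest in *Nrxn3* (14.3 against 428 to 1037 in the other Control libraries), *Cldn7* (219 against 373 to 446) and *Gata3* (1513 against 2730 to 3297), and highest in *Ighv11-2* (3405 against 130 to 211) and *Akt1* (4236 against 3701 to 3832). Obese 2 was highest in the muscle genes *Myh1* (7151 against 29.1 to 60.4) and *Pvalb* (834 against 2.99 to 31.4), and lowest in *Cldn7* (133 against 193 to 213). Control 4 was highest in *Lpin2* (2687 against 1646 to 1873), and Control 1 was lowest in *Plagl1* (759 against 1402 to 1749).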

How the results depend on the processing

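The 1830 rises and 666 falls became 1161 and 500 with the lymph node covariate (1661 in all), 850 and 186 with the luminal covariate (1036), 848 and 234 in the 10 libraries alone (1082), and 515 and 113 without the 8 libraries low in B cell markers (628). With lane as a term 435 fell. Leaving out 1 library gave 876 to 2334 rises, 214 to 1043 falls and 1090 to 3377 calls in all. The other filters, offsets, quantile normalization and voom kept each total within 1.5 times. The cause of these shifts was not tested, and the smaller fits also hold fewer samples. *Gata3*, part of the luminal covariate, turned to 0.03 with it. *Ccl21a*, part of the lymph node covariate, turned to 0.43 with it and to 0.12 without the 8 libraries. All other genes given with a log2 difference of their own kept their direction in every setting. *Apoe*, named only as not called, went from 0.12 to -0.01 with the lymph node covariate. No paired analysis was possible because the labels give no replicate number, and the numbers used here are names in accession order. Lane, which matches 4 Control with 4 Obese libraries, was fitted as a term instead (1896 calls). The lowest depth among the 10 libraries was 16949981 reads, and how depth limits the calls was not tested.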
